A study of Arabidopsis thaliana with 8 samples.

Results

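The 10 chaperone and heat stress genes described here were HSC70-1 (AT5G02500), HSC70-2 (AT5G02490), HSC70-3 (AT3G09440), HSP70-4 (AT3G12580), BIP1 (AT5G28540), BIP2 (AT5G42020), HSP90.1 (AT5G52640), HSP90.2 (AT5G56030), HSP101 (AT1G74310) and HSFA2 (AT2G26150). They were chosen by name, with the high abundance of HSC70-1 mRNA in these libraries in view, and every transcript carrying one of these locus codes was taken. This gave 21 transcripts of 10 genes, out of 48332 transcripts of 27628 genes, and all 10 genes passed the filter on low counts. The RNA came from roots of Arabidopsis thaliana, wild type (WT) or mutant for HY5 (hy5), with 2 libraries in each of 4 groups. Plants of both genotypes had grown upright for a week on solid half-strength MS medium (0.5x), and in all 4 groups the shoots were cut off with a blade before the roots went into liquid MS medium. WT Control and hy5 Control roots received that medium alone, and WT BA and hy5 BA roots received it with 0.1 uM benzyladenine (BA), a cytokinin. The labels name no hy5 allele, treatment time or temperature, and no sample was labelled as heat treated, so every value below is a level in cut roots.

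HSP70 proteins bind unfolded stretches of other proteins and release them in a cycle driven by ATP, with J-domain proteins and nucleotide exchange factors as partners. HSC70-1, HSC70-2, HSC70-3 and HSP70-4 belong to the cytosolic branch of this family, and BIP1 and BIP2 are the HSP70 proteins of the endoplasmic reticulum (ER), where they take part in folding of secreted proteins. HSP90 proteins act later, on nearly folded clients such as receptors and kinases; HSP90.2 is a constitutive and HSP90.1 a heat-inducible cytosolic member. HSP101, a ClpB-type protein, pulls proteins out of aggregates together with HSP70 and is needed for acquired tolerance of high temperature. HSFA2 is a heat stress transcription factor that is itself induced by heat and prolongs the expression of many heat shock genes. Heat stress factors bind heat shock elements, runs of GAA units in alternating orientation. HY5, a transcription factor of the bZIP class, acts in light-grown seedlings and binds ACGT-containing elements such as the G-box, CACGTG.

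The stretch around the start of the most abundant transcript of 9 of the genes was searched, and it is shown for the 4 genes in which a searched motif was found, from 250 bases before the start to 50 bases after it. They are RefSeq sequences of the build TAIR10.1, written 5′ to 3′ on the gene's strand. Capitals mark the fixed letters of every pair of heat shock units (GAANNTTC or TTCNNGAA) and of every G-box.
HSC70-3 (chr3:2905680-2905979, minus strand): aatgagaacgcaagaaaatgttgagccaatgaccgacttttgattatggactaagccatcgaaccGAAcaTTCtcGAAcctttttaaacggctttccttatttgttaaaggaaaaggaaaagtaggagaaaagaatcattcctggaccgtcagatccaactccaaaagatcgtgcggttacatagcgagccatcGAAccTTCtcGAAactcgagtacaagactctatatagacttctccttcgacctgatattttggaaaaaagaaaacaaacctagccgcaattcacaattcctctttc
HSP70-4 (chr3:3993837-3994136, minus strand): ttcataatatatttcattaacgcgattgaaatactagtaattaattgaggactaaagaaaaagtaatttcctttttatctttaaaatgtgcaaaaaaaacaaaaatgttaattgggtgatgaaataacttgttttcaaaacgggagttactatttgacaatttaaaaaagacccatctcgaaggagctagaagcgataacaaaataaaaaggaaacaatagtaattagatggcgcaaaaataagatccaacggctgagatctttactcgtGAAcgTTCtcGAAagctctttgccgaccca
HSFA2 (chr2:11135384-11135683, plus strand): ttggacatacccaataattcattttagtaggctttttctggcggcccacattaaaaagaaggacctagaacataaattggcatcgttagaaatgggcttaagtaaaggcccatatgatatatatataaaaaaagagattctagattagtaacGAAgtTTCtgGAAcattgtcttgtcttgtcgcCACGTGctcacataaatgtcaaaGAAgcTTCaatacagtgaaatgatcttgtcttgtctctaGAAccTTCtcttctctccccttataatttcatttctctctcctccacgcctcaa
HSC70-1 (chr5:556574-556873, minus strand): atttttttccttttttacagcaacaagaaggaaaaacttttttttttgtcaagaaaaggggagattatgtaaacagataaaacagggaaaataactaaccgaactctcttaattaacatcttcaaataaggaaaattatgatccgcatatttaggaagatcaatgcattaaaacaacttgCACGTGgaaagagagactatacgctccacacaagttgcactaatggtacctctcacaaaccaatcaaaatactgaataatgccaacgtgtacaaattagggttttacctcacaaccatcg

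Runs of 3 heat shock units, that is GAANNTTC continued by NNGAA or its reverse complement, stood in 3 of the 9 windows, those of HSC70-3, HSP70-4 and HSFA2. Of the 27418 windows of this length in the annotation, 0.507% held such a run. HSC70-3 had 1 run beginning 185 bases and another beginning 56 bases before the start (positions -185 and -56), HSFA2 had 1 at -98, and the run of HSP70-4 lay inside the transcript at position 21. The annotated HSC70-3 gene reaches upstream of the start used here, to base 2905947, so both of its runs lie inside the annotated gene. The shorter motif of 2 units, which every run of 3 contains, was present in the same 3 of 9 windows, against 19.852% of all windows. A G-box was found in HSC70-1 at -70 and in HSFA2 at -66, against 7.637% of all windows. Both strands were searched. The HSP90.1 window did not reach upstream of a known start, because its annotated transcript begins with ATG. The HSP90.2 window lay wholly inside the annotated gene, which begins at base 22686473, so nothing upstream of that gene was searched. No motif was found in the windows of HSC70-2, BIP1, BIP2, HSP90.1 or HSP90.2. These matches describe letters in a window and not bound sites.

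Libraries held between 29928501 and 35289411 estimated counts. HY5 itself was at 31.02 to 32.42 CPM (estimated counts scaled to library size) in the 4 WT libraries and at 0.826 to 1.97 in the 4 hy5 libraries, which fits the genotype labels. All 8 root markers (among them SCR, SHR, WOX5 and CASP1) were detected in every library. Their summed levels were 4707 to 5985 CPM in WT and 3898 to 4817 CPM in hy5. Most of each sum was PYK10, with group means of 3756 to 5517 CPM. In control medium the means of SCR, SHR, WOX5, PLT1 and CASP1 were higher in hy5, and those of PYK10, EXPA7 and COBL9 were lower. The 8 shoot and leaf markers summed to 41.7 to 51.7 CPM in WT and 3.77 to 15.9 CPM in hy5, most of it RBCS1A, and 1 or 2 of them, always WUS or a stomatal lineage or meristem gene (SPCH, FAMA or STM), were at 0 in each library. In bulk RNA, fewer cells of a type and less RNA per cell cannot be told apart, and the part of the RBCS1A difference in the results below was not tested.

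By TPM, a level per transcript length, HSC70-1 mRNA was the highest of the 10 genes in all 8 libraries, with a median of 1780 TPM (1674 to 2014). Its abundance was part of the choice of genes, so the level is a description. It held ranks 17 to 27 among all genes by TPM, and by estimated counts its rank was 3 in the 4 WT libraries, 2 in hy5 Control 1 and 1 in the other 3 hy5 libraries. HSC70-3 followed at a median of 962 TPM, HSP70-4 at 752, HSP90.2 at 634, HSP90.1 at 473 and HSP101 at 275. The ER genes BIP2 and BIP1 were lower, at 148 and 107 TPM, and HSC70-2 and HSFA2 had the lowest levels, at 79.4 and 74.1 TPM.

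Every gene in this order stood above the next one in all 8 libraries, and CPM per kilobase gave the same order. Across libraries, however, the range of HSP70-4 overlapped that of HSP90.2, that of HSP90.2 overlapped that of HSP90.1, and that of HSC70-2 overlapped that of HSFA2, so these neighbours are ordered within a library but not by level alone. The heat-inducible genes were thus not silent in roots without a labelled heat treatment: HSP101 lay between 243 and 326 TPM, at ranks 450 to 650 among all genes, and HSFA2 lay between 57.2 and 80.8 TPM. Together the 10 genes took 1.05 to 1.16% of all estimated counts in WT and 1.19 to 1.31% in hy5. Short transcripts (under 250 bases) took between 11.4% and 18.0% of the TPM of a library, so comparisons between libraries below use CPM scaled by the trimmed mean of M-values (TMM).

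**Figure D1:**
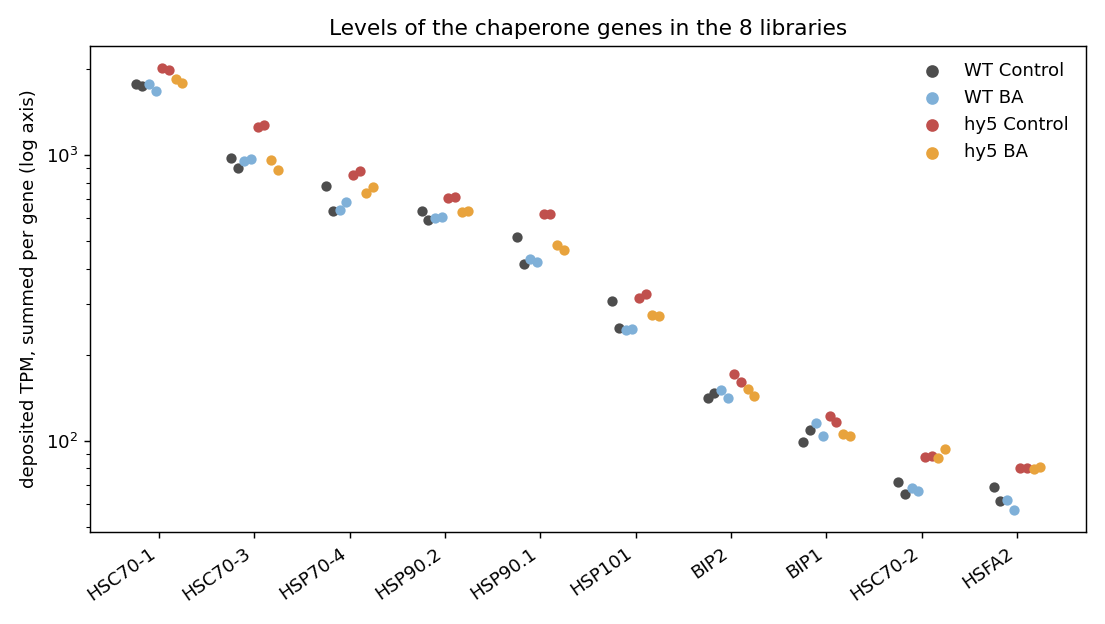
Deposited TPM summed per gene (y axis, log scale) for the 10 genes (x axis, ordered by median), with 1 point for each of the 8 libraries, coloured by group. HSC70-1 lies at 1674 to 2014 TPM, apart from all others, and HSFA2 at 57.2 to 80.8 TPM.

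Most genes were read mainly from 1 transcript. HSC70-1 transcript AT5G02500.1 took 82.8 to 84.8% of the gene's TPM, AT3G09440.3 took 87.2 to 89.8% of that of HSC70-3, AT5G42020.1 took 75.9 to 81.7% of that of BIP2, AT5G56030.2 took 76.1 to 80.4% of that of HSP90.2 and AT1G74310.1 took 94.3 to 95.9% of that of HSP101. HSC70-2, HSP70-4, BIP1 and HSP90.1 had 1 transcript each in the tables. HSFA2 was the most divided, with 61.8 to 67.0% in AT2G26150.4 and 19.3 to 29.9% in AT2G26150.1. Its transcript AT2G26150.3 stood at 3.75 and 2.09 TPM for WT Control and 4.58 and 4.11 TPM for WT BA, while hy5 Control had 9.80 and 6.92 TPM and hy5 BA 4.95 and 9.68 TPM. Both hy5 Control values were above all 4 WT values, and both hy5 BA values were above them as well, by little in hy5 BA 1. The highest values came from hy5 Control 1 and hy5 BA 2. These libraries also stood apart in their share of estimated counts near whole numbers, given under processing, and a link between these was not tested. As a share of the gene, the mean over both libraries was 4.42% for WT Control and 7.29% for WT BA, against 10.4% for hy5 Control and 9.11% for hy5 BA. In hy5 BA 1 the transcript held 4.95 of 79.3 TPM, a smaller share than in WT BA 1 (4.58 of 62.0) or WT BA 2 (4.11 of 57.2). The higher mean share of hy5 BA over WT BA thus rested on hy5 BA 2. The split between transcripts is an estimate by Salmon and was not tested.

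Some of these genes share sequence, which bears on how reads were assigned. Of the 31-base words in the transcripts of BIP1, 35.5% also occur in BIP2, and 27.8% of those of HSP90.2 occur in another gene (HSP90.3 or HSP90.4). HSC70-3 shares 18.098%, mostly with AT3G09430, which overlaps it on the opposite strand; its main transcript shares 1.62%. HSP101 shares 3.12%, mostly with AT1G74300 on the opposite strand, HSC70-2 shares 3.34%, HSC70-1 2.63% and HSP70-4 0.08%, while HSP90.1 and HSFA2 share none. The overlapping genes were low (AT3G09430 at 3.17 to 5.01 CPM, AT1G74300 at 26.8 to 37.7 CPM), and neither passed the test in any comparison. A further gene annotated over HSC70-3 on its own strand, AT3G02205, was not analysed here. No source used here says whether the counting used strand, so reads from overlapping genes cannot be told apart. Values of BIP1, BIP2 and HSP90.2 are best read with that uncertainty.

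Most of these genes passed the test in 1 comparison, that of the genotypes without added cytokinin. Roots of hy5 in control medium had higher mRNA levels than WT for all 4 cytosolic HSP70 genes, both ER HSP70 genes, both HSP90 genes and HSFA2, by 18.3 to 39.6%. This was 9 of 10 genes past the threshold (adjusted p under 0.05 over 22682 genes), all higher, where 13.7% of all genes were called higher and 25.1% were called in either direction. The 10 genes were chosen with earlier results of these data known, so the contrast with all genes is a description. In all 10 genes both hy5 Control libraries exceeded both WT Control libraries, as they did in 31.5% of all genes. The median log2 fold change was 0.30 for the 10 genes and -0.001 for all genes tested.

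HSC70-3, a cytosolic HSP70, was at 1906 and 1699 CPM in WT Control and at 2488 and 2544 CPM in hy5 Control. The hy5 libraries were close to each other and well above both WT libraries. The log2 fold change was 0.48 ± 0.09 (SE, 2 libraries a group), with an adjusted p of 0.000523. HSP90.1, the heat-inducible HSP90, was at 941 and 736 CPM in WT Control and at 1149 and 1164 CPM in hy5 Control. Both hy5 values lay above the WT values, although those differed widely from each other. Its log2 fold change was 0.46 ± 0.10 with an adjusted p of 0.00205, and without WT Control 2 it was 0.30, still past the threshold.

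HSC70-2, a much weaker expressed neighbour of HSC70-1 on chromosome 5, was at 158 and 139 CPM in WT Control and at 196 and 199.9 CPM in hy5 Control. The groups did not overlap, and the log2 fold change was 0.42 ± 0.08 with an adjusted p of 0.000693. HSFA2 was at 92.0 and 80.5 CPM in WT Control and at 108 and 110.3 CPM in hy5 Control. Again the hy5 libraries were the higher ones, by 0.34 ± 0.07 on the log2 scale, with an adjusted p of 0.00211.

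The most abundant gene, HSC70-1, was at 3863 and 3677 CPM in WT Control and at 4466 and 4453 CPM in hy5 Control. This was the smallest called difference of the 10, a log2 fold change of 0.24 ± 0.08 with an adjusted p of 0.0375, with the libraries of each group close together. The edgeR call was lost with library totals in place of TMM (0.16, adjusted p of 0.123). It was also lost with only these 2 groups in the fit (adjusted p of 0.0584) or with replicate number added (adjusted p of 0.0731). When 1 library was left out, the log2 fold change of HSC70-1 ran from 0.21 to 0.28. HSP70-4, the heat-inducible cytosolic HSP70, was at 1742 and 1376 CPM in WT Control and at 1934 and 2012 CPM in hy5 Control. Its log2 fold change was 0.34 ± 0.10 with an adjusted p of 0.0249, and the distance between the WT libraries was larger than that between WT Control 1 and hy5 Control 1. Without WT Control 2 its log2 fold change was 0.18, with an adjusted p of 0.240, and without WT Control 1 it was 0.52. HSP90.2 was at 1353 and 1221 CPM in WT Control and at 1531 and 1557 CPM in hy5 Control, a log2 fold change of 0.26 ± 0.08 with an adjusted p of 0.0260.

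In the ER, BIP2 was at 311 and 315 CPM in WT Control and at 380.3 and 366 CPM in hy5 Control. BIP1 was at 253 and 269 CPM in WT Control and at 317 and 303 CPM in hy5 Control. Neither gene's groups overlapped, and the log2 fold changes were 0.25 ± 0.07 in both, with an adjusted p of 0.0134 for BIP2 and 0.0173 for BIP1. HSP101 was the gene that missed the threshold in edgeR. It was at 917 and 713 CPM in WT Control and at 952 and 996 CPM in hy5 Control, a log2 fold change of 0.26 ± 0.10 with an adjusted p of 0.0745. DESeq2 called it (adjusted p of 0.0391), and in edgeR it was called without WT Control 1 (0.45, adjusted p of 0.00115), while without WT Control 2 its log2 fold change was 0.09 (adjusted p of 0.567).

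The WT Control libraries differed most from each other in these genes. WT Control 1 exceeded WT Control 2 in 8 of the 10 genes, and the higher library stood above the lower by a median of 13.2% (1.24 to 28.6%), against 4.07% for WT BA, 2.12% for hy5 Control and 2.54% for hy5 BA. For 3589 well expressed genes (mean log2 CPM of at least 6) the median gap was 6.54% in WT Control and 4.06 to 5.84% in the other groups. Without WT Control 2 the count fell to 6 of 10, and without hy5 Control 1 or hy5 Control 2 it fell to 4, with HSC70-3, HSC70-2, HSP90.1 and HSFA2 called in all of these. Library totals without TMM, which moved the median log2 fold change of all genes to -0.09, left 5 of 10.

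**Figure D2:**
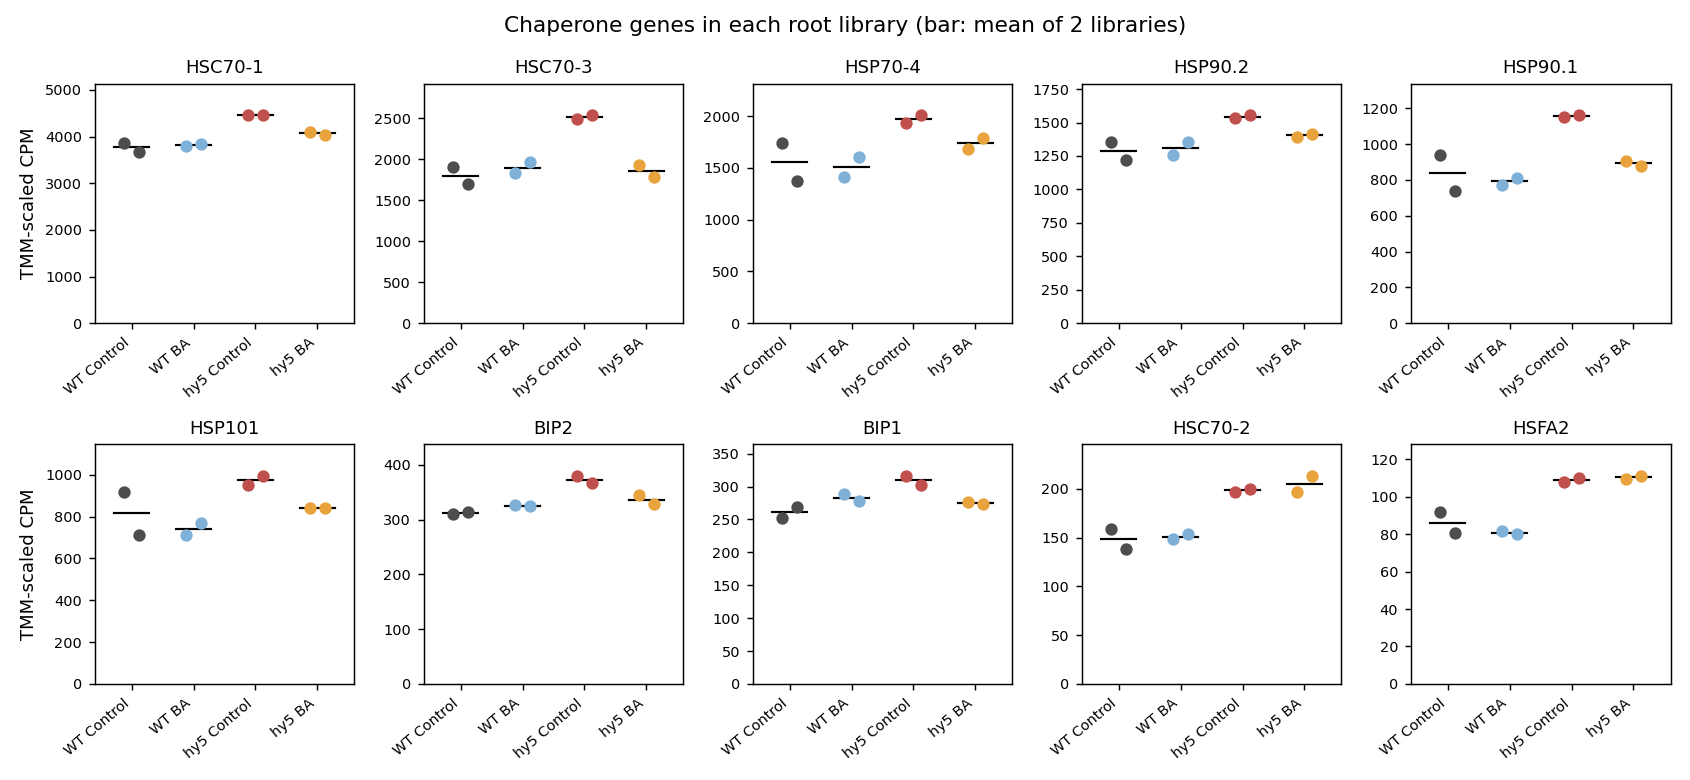
TMM-scaled CPM (y axis, from 0) of each gene in the 8 libraries (points) by group (x axis), with the mean of 2 libraries as a bar. In all 10 panels both hy5 Control points lie above both WT Control points, and the WT Control points lie widest apart for HSP101, HSP90.1 and HSP70-4.

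With BA in the medium, HSC70-2 and HSFA2 passed the threshold, both higher in hy5, which is 2 of 10 where 11% of all genes were called higher. HSFA2 was at 81.6 and 79.9 CPM in WT BA and at 109.6 and 111 CPM in hy5 BA. The hy5 libraries stood clearly above the WT libraries, with a log2 fold change of 0.45 ± 0.07 and an adjusted p of 0.000222. HSC70-2 was at 148 and 154 CPM in WT BA and at 197 and 213 CPM in hy5 BA. There the log2 fold change was 0.44 ± 0.08 with an adjusted p of 0.000469. Both calls held when any 1 library was left out.

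The other 8 genes had log2 fold changes between -0.04 (BIP1) and 0.20 (HSP70-4) in this comparison, with adjusted p from 0.181 to 0.836. HSC70-3, the gene with the largest genotype difference in control medium, was at 1831 and 1971 CPM in WT BA and at 1929 and 1791 CPM in hy5 BA. The groups overlapped, and the 95% interval of the log2 fold change ran from -0.21 to 0.15. HSC70-1 was at 3805 and 3842 CPM in WT BA and at 4109.7 and 4038 CPM in hy5 BA, higher in both hy5 libraries but with an interval from -0.08 to 0.26. In 8 of the 10 genes both hy5 libraries were above both WT libraries, against 31.3% of all genes, and in BIP1 both were below, as in 29.5% of all genes.

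BA alone did not move these genes past the threshold in WT roots. None of the 10 was called by edgeR, where 8.20% of all genes were; none had an unadjusted p under 0.05, and DESeq2 called none. HSP90.2 was at 1353 and 1221 CPM in WT Control and at 1260.2 and 1352 CPM in WT BA, a log2 fold change of 0.02 with a 95% interval from -0.15 to 0.19. HSP101 was at 710.2 and 769 CPM in WT BA, where its WT Control libraries were at 917 and 713, so the lower WT Control library fell inside the range of the BA libraries. Its log2 fold change of -0.14 had an interval from -0.35 to 0.07, and the gene was called lower (-0.32, adjusted p of 0.0356) once WT Control 2 was left out. BIP1 and BIP2 were the 2 genes of 10 (27.2% of all genes) in which both BA libraries exceeded both control libraries, both slightly higher with BA, at 288 and 278 CPM for BIP1 and at 327 and 324 CPM for BIP2, with log2 fold changes of 0.12 and 0.06.

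In hy5 roots, 2 of the 10 genes fell with BA, where 8.01% of all genes were called lower and 11.1% were called in either direction. HSC70-3 went from 2488 and 2544 CPM in hy5 Control to 1929 and 1791 CPM in hy5 BA. That was a drop of 26.1%, a log2 fold change of -0.44 ± 0.09 with an adjusted p of 0.00315, and it brought the gene to the level of both WT groups (1699 to 1971 CPM). HSP90.1 went from 1149 and 1164 CPM to 907 and 878 CPM. Its log2 fold change was -0.37 ± 0.10 with an adjusted p of 0.0196, and the BA libraries lay within the range of WT Control (736 to 941 CPM).

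For 6 further genes both hy5 BA libraries were below both hy5 Control libraries without passing the threshold, which makes 8 of 10 against 27.4% of all genes. Their log2 fold changes ran from -0.13 (HSC70-1) to -0.21 (HSP101), and that of BIP1 was -0.17 with an adjusted p of 0.150. HSC70-2 and HSFA2, the pair that passed the genotype test with BA, had log2 fold changes of 0.05 and 0.02 here, with intervals from -0.11 to 0.21 and from -0.14 to 0.17. The median was -0.16 for the 10 genes and 0.02 for all genes tested. Both calls depended on single libraries: without hy5 BA 2 neither gene was called (adjusted p of 0.0592 for HSC70-3 and 0.160 for HSP90.1), and HSP90.1 was also lost without hy5 Control 1, hy5 Control 2 or hy5 BA 1. This comparison and that of genotype in control medium share the hy5 Control libraries and are not independent of each other.

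**Figure D3:**
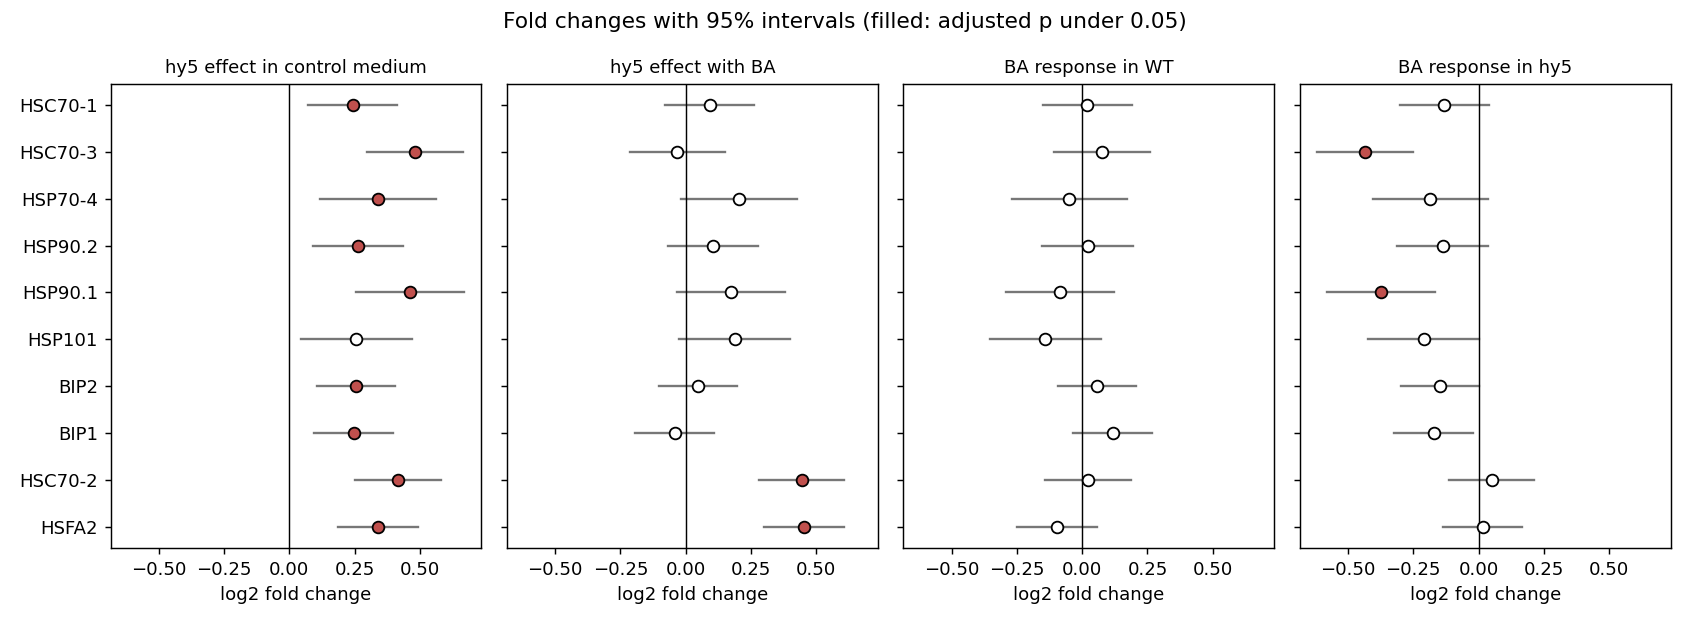
Log2 fold changes (x axis) of the 10 genes (y axis) in the 4 comparisons, with 95% intervals as lines and filled points for an adjusted p under 0.05. All 10 points lie right of 0 for genotype in control medium, and HSC70-3 and HSP90.1 lie farthest left for BA in hy5, at -0.44 and -0.37.

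Whether the response to BA differed between genotypes was tested as an interaction term, the fold change by BA in hy5 over that in WT. None of the 10 genes passed, where 0.485% of all genes did. HSC70-3 came nearest, with a difference of -0.51 ± 0.12 on the log2 scale, an unadjusted p of 0.000700 and an adjusted p of 0.0772 in edgeR. DESeq2 called it (-0.52, adjusted p of 0.000791), and no edgeR setting with 2 libraries in each group did. When 1 library was left out, the difference ran from -0.60 to -0.44. BIP1 was the other gene with an unadjusted p under 0.05, at -0.29 ± 0.10 and an adjusted p of 0.216. HSP90.1 was at -0.29 ± 0.14 with an adjusted p of 0.367, and between -0.48 and -0.13 when 1 library was left out. For HSFA2 the difference was 0.11 with an interval from -0.10 to 0.33, and for HSC70-2 it was 0.03 with an interval from -0.20 to 0.26.

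Other genes of the chaperone network were examined as 6 lists. Small heat shock proteins, which hold unfolding proteins in a soluble state, were the list with the most genes called for genotype in control medium: 8 of 18 tested were higher and 2 lower, where 25.1% of all genes were called and 13.7% were called higher, with a median log2 fold change of 0.22. Among the higher ones were AT1G53540 (0.61 ± 0.10, adjusted p of 0.000490) and HSP17.6II (AT5G12020, 0.40 ± 0.09, adjusted p of 0.00262). AT4G21870, annotated as an HSP20-like protein, was lower (-0.84 ± 0.12, adjusted p of 0.000221). With BA, 4 were higher and 4 lower in hy5. Of the 22682 genes tested, 11% were called higher, 2816 genes were called lower and 5321 in either direction. The 4 higher genes included AT1G59860 (0.42, adjusted p of 0.00108). The 4 lower genes included AT4G21870 (-0.85) and AT2G19310 (-0.75, adjusted p of 0.000472). BA lowered 1 of 18 in WT, AT4G21870 (-0.51), where 8.20% of all genes were called, and 3 of 18 in hy5, where 8.01% of all genes were called lower: AT5G51440 (-0.50), AT4G21870 (-0.52) and AT1G52560 (-0.35). For genotype in control medium the 10 calls became 4 without WT Control 2, 6 without hy5 Control 1, 5 without hy5 Control 2 and 14 of 18 without WT Control 1. For genotype with BA, the 8 calls became 4 without hy5 BA 2, and for BA in hy5 the 3 calls became 0 without hy5 BA 2 and 1 without either hy5 Control library. For BA in WT the single call became 0 without WT BA 2, 2 without WT Control 2 or WT BA 1 and 3 without WT Control 1.

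Of 19 co-chaperones and partners of the heat response, 7 were higher and none lower in hy5 in control medium, where 13.7% of all genes were called higher and 25.1% in either direction. Fes1A, a partner of cytosolic HSP70, rose by 0.34 ± 0.09 on the log2 scale (adjusted p of 0.0108), SGT1A, a partner of HSP90, by 0.31 ± 0.09 (adjusted p of 0.0166) and ROF1, a peptidyl-prolyl isomerase that binds HSP90, by 0.27 ± 0.08 (adjusted p of 0.0166). With BA in hy5, 5 fell and 1 rose, where 11.1% of all genes were called; HOP2, which links HSP70 with HSP90, fell by 0.27 (adjusted p of 0.0183), DREB2A, a stress transcription factor, fell by 0.35 (adjusted p of 0.0126), and AT3G03773, annotated as an HSP20-like protein, rose by 0.48 (adjusted p of 0.00229). In WT, SGT1A was the 1 gene of 19 called, lower with BA by 0.41 (adjusted p of 0.00957), where 8.20% of all genes were called; the count became 0 without WT Control 1 or WT BA 2, 2 without WT BA 1 and 3 without WT Control 2. With BA, SGT1A (0.39) and AT3G03773 (0.44) were higher in hy5 than in WT; these 2 of 19 compare with 11% of all genes called higher, and the count was 4 without WT Control 1. The 7 calls for genotype in control medium became 1 without WT Control 2, hy5 Control 1 or hy5 Control 2, and the 6 calls for BA in hy5 became 1 without hy5 Control 1, hy5 Control 2 or hy5 BA 2. With library totals only they were 1 and 2.

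Heat stress factors other than HSFA2 went both ways. In control medium 4 of 19 tested were higher and 2 lower in hy5, a share near the 25.1% of all genes called, with a median of 0.04. With BA, 2 of 19 were higher in hy5, where 11% of all genes were called higher. In the same comparison 1 of 19 was lower, where 2816 of 22682 genes were called lower. BA itself raised 3 of 19 and lowered 2 in WT, where 8.20% of all genes were called. It raised 2 and lowered 2 in hy5, where 11.1% of all genes were called. HSFA7B, like HSFA2 a class A factor, was at 8.08 and 6.66 CPM in WT Control and at 12.6 and 12.3 CPM in hy5 Control. It was higher in hy5 by 0.76 ± 0.11 on the log2 scale (adjusted p of 7.2e-05) and by 1.00 ± 0.11 with BA (adjusted p of 7.6e-06). HSFA1E, of the class that starts the heat response, was higher by 0.63 in control medium and by 0.54 with BA. HSFC1 was lower in hy5 by 0.91 ± 0.09 in control medium and by 0.72 ± 0.08 with BA, and it rose with BA in WT (0.37) and in hy5 (0.56). The latter gene has an antisense neighbour, AT3G24518, on the opposite strand. HSFA6B rose with BA by 0.60 in WT and by 0.68 in hy5, HSFA4A rose by 0.49 in WT, and HSFB1, a repressor-type factor, fell by 0.43 in hy5. The other genotype moved the same way in both. HSFA4A was at 45.1 and 46.7 CPM in hy5 Control and at 57.1 and 51.2 CPM in hy5 BA. HSFB1 was at 543 and 545 CPM in WT Control and at 467 and 447 CPM in WT BA. The 6 calls for genotype in control medium became 3 without WT Control 2 or hy5 Control 2, and the 5 calls for BA in WT became 3 without WT Control 1, WT BA 1 or WT BA 2.

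The remaining HSP70 and HSP110 genes gave 3 of 11 higher and none lower in hy5 in control medium, a share near the 25.1% of all genes called (13.7% higher). They were HSP70T-2 (AT2G32120, 0.41 ± 0.10, adjusted p of 0.00813), the plastid gene cpHSC70-2 (0.28 ± 0.07, adjusted p of 0.00860) and the HSP110-type gene HSP70-15 (0.22 ± 0.08, adjusted p of 0.0442). The plastid and HSP110-type genes were the 2 of 11 that fell with BA in hy5, by 0.29 and 0.33, where 8.01% of all genes were called lower. For genotype with BA, 2 of the 11 were higher in hy5, against 11% of all genes. With BA, HSP70T-2 (0.39) and AT4G16660 (0.21) were higher in hy5, and this count of 2 became 0 without WT BA 2 or hy5 BA 2 and 1 without WT BA 1 or either hy5 Control library. None of the 7 other HSP90 and ClpB genes was called by edgeR for genotype in control medium, with a median of -0.01, 1 at an unadjusted p under 0.05 and 1 called by DESeq2. For BA, edgeR and DESeq2 called none of these 7 in either genotype, with 1 at an unadjusted p under 0.05 in each, and none of the 11 HSP70 and HSP110 genes in WT, with 0 at an unadjusted p under 0.05. Without WT Control 2, however, edgeR called 1 of each list in WT, and in hy5 it called 1 of the 7 when the other genotype was left out of the fit. For genotype in control medium the 3 HSP70 and HSP110 calls became 0 without WT Control 2 or hy5 Control 2, and the 2 for BA in hy5 became 0 without hy5 Control 1, hy5 Control 2 or hy5 BA 2. The near-identical cytosolic gene HSP90.3 had a log2 fold change of 0.19 ± 0.08 and an adjusted p of 0.0939 for genotype in control medium. HSP90.5, of the plastid, was lower in hy5 with BA (-0.22, adjusted p of 0.0337). It was the 1 of these 7 genes called lower there, where 2816 of 22682 genes were called lower. That call was lost without WT BA 1 or any single hy5 library.

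Of 24 genes of ER folding and the unfolded protein response, 4 were higher and 2 lower in hy5 in control medium, a share near the 25.1% of all genes called, with a median of 0.04. ERO1, an oxidase that supplies disulfide bonds, was higher by 0.51 ± 0.13 (adjusted p of 0.00694), ERDJ3A, a J-domain partner of BiP, by 0.34 ± 0.09 (adjusted p of 0.0109) and DER1 by 0.27 ± 0.07 (adjusted p of 0.0136). With BA in hy5, 4 fell and none rose, where 8.01% of all genes were called lower. Among the 4 were BZIP60 (-0.39 ± 0.08, adjusted p of 0.00521), ERDJ3A (-0.34, adjusted p of 0.0205) and BZIP28 (-0.28, adjusted p of 0.0237). BZIP60 and BZIP28 are transcription factors of the unfolded protein response. For genotype with BA, 2 of the 24 genes were higher in hy5, against 11% of all genes. With BA, ERO1 (0.39) and ERDJ3A (0.27) were higher in hy5, a count that became 0 without WT BA 1, WT BA 2 or hy5 BA 1, 1 without hy5 BA 2 or either hy5 Control library and 4 without either WT Control library. In WT, edgeR called none of the 24 for BA, with 8 at an unadjusted p under 0.05 and 1 called by DESeq2, and without WT Control 2 it called 3. The share of all genes at an unadjusted p under 0.05 is not given here, so such counts in the lists have no background beside them. For BA in WT, PDIL2-1, a protein disulfide isomerase, had the smallest p of the 24 genes (0.24, adjusted p of 0.0665). The 6 calls for genotype in control medium became 2 without WT Control 2 or hy5 Control 2, and the 4 for BA in hy5 became 0 without hy5 BA 2 and 1 without hy5 Control 2 or hy5 BA 1. No gene of these 6 lists was called for the interaction by edgeR or by DESeq2, and 0 to 4 genes per list had an unadjusted p under 0.05; without WT Control 1, however, 3 small heat shock protein genes were called. The nearest in each list ranged in adjusted p from 0.119 (AT3G03773) to 0.470 (HSP70-15).

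**Figure D4:**
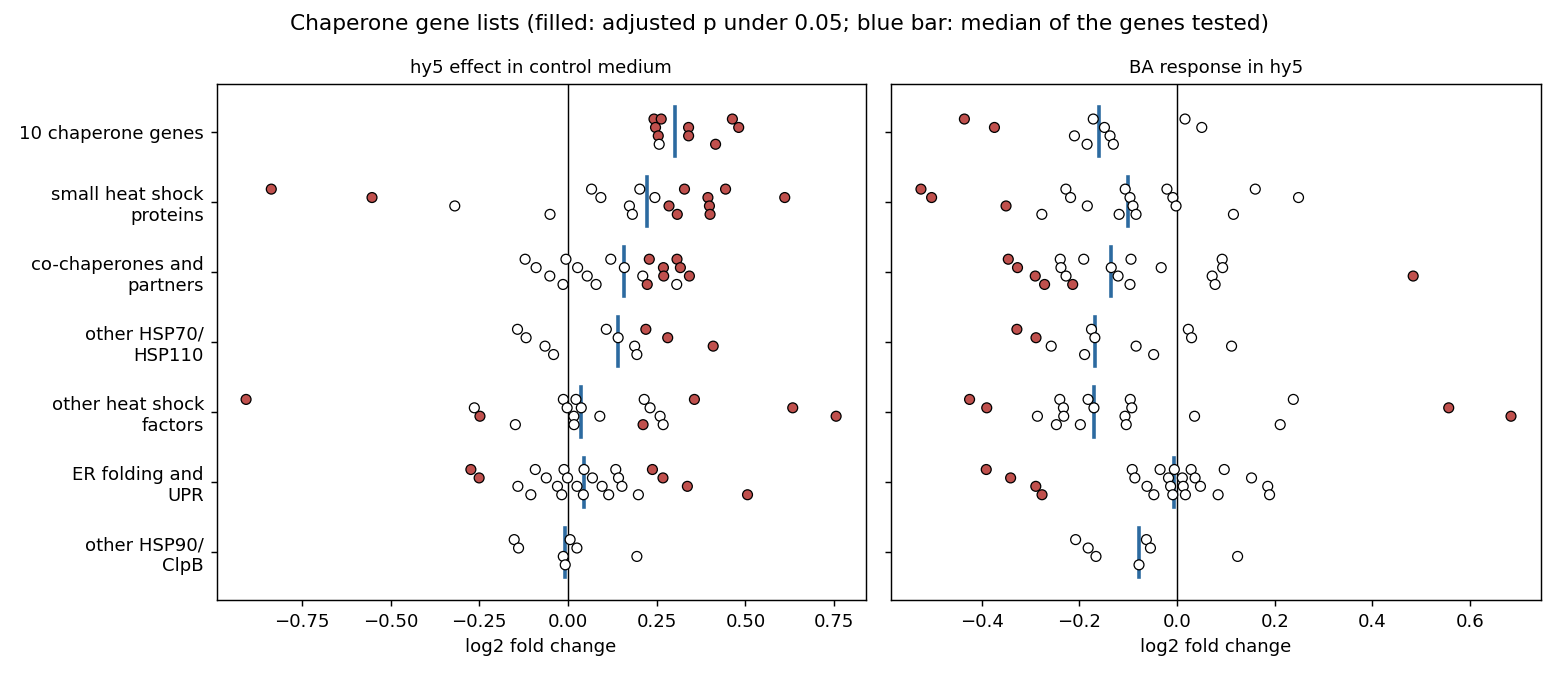
Log2 fold changes (x axis) of every tested gene of the 10 described here and of 6 further lists (y axis) for genotype in control medium and for BA in hy5, with filled points for an adjusted p under 0.05 and the list median as a blue bar. The median for genotype in control medium is 0.30 for the 10 genes, 0.22 for small heat shock proteins and -0.01 for other HSP90 and ClpB genes.

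The 10 genes did not share 1 profile over the 8 libraries. Profiles were compared by the root mean square difference of log2 CPM, each gene centred on its own mean, so that a smaller value means a closer pair; the 8 libraries share the group structure, and no test was made. The closest pairs were HSC70-1 with BIP2 (0.03), HSC70-1 with HSP90.2 (0.03) and BIP1 with BIP2 (0.04), and BIP1 and BIP2 share sequence as given above. HSC70-1, BIP1, BIP2 and HSP90.2 also varied least around their own means, by 0.095 to 0.114, against 0.173 to 0.229 for the others. Genes that vary little lie close by this measure whatever their pattern. HSP70-4 and HSP101, both heat-inducible, differed by 0.05, and HSC70-2 and HSFA2, the 2 genes that passed the genotype test with BA, by 0.06.

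Among 18678 other genes, those nearest to HSP70-4 were HSP17.6II (0.04), the cell wall gene XTH24 (0.04) and Fes1A (0.04). HSP101 had Fes1A (0.04), XTH24 (0.04) and AT3G52800 (0.05) as its nearest genes, so HSP70-4 and HSP101 had 2 of 3 nearest genes in common. Both profiles include the gap between the WT Control libraries, 26.6% for HSP70-4 and 28.6% for HSP101. Many genes lay almost as near. Within 2 times the distance of the third nearest gene were 44 genes for HSP70-4, 273 for HSP101 and 127 (BIP2) to 481 (BIP1) for the others. For HSC70-3 they were UBQ14, a polyubiquitin gene (0.04), AT3G09032 (0.05) and AT3G59080 (0.05), and for HSP90.1 AGC2-1 (0.05), AT2G36410 (0.05) and MYB94 (0.06). HSFA2 lay nearest to RSZ21, a splicing factor gene (0.04), ICR1 (0.05) and ZIF1 (0.05), and HSC70-2 to AT1G31720, AT3G62260 and PIRL5 (0.05 each). HSC70-1 lay nearest to AT5G16880 (0.02), AT1G71950 (0.03) and AT4G19140 (0.03), BIP2 to AT4G19140 (0.02), TOM1 (0.03) and VOZ2 (0.03), BIP1 to AT1G61620 (0.03), AT1G59960 (0.03) and PBS1 (0.04), and HSP90.2 to GSTF8 (0.03), AT1G71950 (0.04) and RHA1 (0.04).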

How the data were processed

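Polyadenylated RNA of 8 root libraries was measured, 2 in each of 4 groups taken from the sample titles. Nothing in the labels tells whether a group's libraries are from separate plants or cultures, so p-values measure the spread between these samples, which may be technical. Per the labels' protocols, RNA was extracted with CTAB, purified with oligo-dT, fragmented by heat, primed at random and ligated to Kapa TruSeq adapters. The deposited estimated counts and the deposited TPM values per transcript were made by the authors with Salmon on TAIR10, per the submitters' processing notes. No source used here gives the Salmon version, its settings or the strand setting.

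Estimated counts were summed per locus code and rounded. RefSeq annotation of TAIR10.1 held 48123 of 48332 transcripts, 99.58% with equal length, and all 21 transcripts described. The share of transcripts whose estimated count missed a whole number by under 0.001 was 21.6% for hy5 Control 1, 23.5% for hy5 BA 2 and 1.34 to 1.53% for the other libraries. Both libraries of each group differed beyond sampling noise (chi-square per gene 3.89 to 7.93), so none was counted as a copy.

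The main test was edgeR 4.0.16 (R 4.3.3): filterByExpr with a minimum count of 10 (22682 genes kept, 4946 removed), TMM, a robust quasi-likelihood fit of 4 group means over all 8 libraries, 2-sided tests and Benjamini-Hochberg adjustment over all genes tested, with calls at an adjusted p under 0.05. The standard error is the log2 fold change over the root of its F statistic. The pipeline was tested on simulated data. The promoter window of 1 of the 10 genes is not reported here. Alternatives were RLE scaling, library totals only, DESeq2 1.42.0, no filter, only the groups compared, a replicate block, an effective length offset, related genes summed, and leaving out each library. The members and lists were chosen with earlier results of these data known. Genes named outside the 10 were, per list and comparison, up to 3 called genes with the smallest p, or the 1 gene with the smallest p where none was called, and the 3 nearest profiles of each member among genes whose log2 CPM averaged 1 or more.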

Additional observations from a re-analysis of the deposited data

How the results depend on the processing

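The count of the 10 genes called moved as follows. For genotype in control medium, 9 became 5 with library totals only, 4 of 6 units with related genes summed (the 4 cytosolic HSP70 genes, the BiP genes, and HSP90.2 with HSP90.3 and HSP90.4, as 1 unit each), 10 with DESeq2, and 4 to 9 when 1 library was left out. For BA in hy5, 2 became 1 of 6 units with related genes summed, and 0 to 2 when 1 library was left out. Without hy5 Control 1 and hy5 BA 2, an alternative chosen after seeing the data, genotype in control medium gave 4 and BA in hy5 gave 0. For genotype with BA, 2 became 1 of 6 units with related genes summed. The interaction went from 0 to 1 with DESeq2 and to between 0 and 2 when 1 library was left out. BA in WT gave 0 to 1 when 1 library was left out. The settings not named gave counts within 1.5 times of these. No fold change of the 10 genes reversed a call.

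Library totals moved the median of all genes from -0.01 to 0.10 for the interaction and from 0.02 to 0.10 for BA in hy5, where the calls went from 706 higher and 1817 lower to 1712 higher and 1285 lower. For genotype in control medium they went from 3103 higher and 2593 lower to 2303 higher and 4263 lower, and for the interaction from 11 higher and 99 lower to 22 higher and 33 lower. Over all genes, the count for BA in hy5 ranged from 585 to 3552 and for the interaction from 6 to 331 (main 2523 and 110). Same-numbered libraries did not deviate together (correlations of -0.07 to 0.02), so the numbers were not taken as pairs. A replicate block gave 8 of 10 for genotype in control medium, 2 for genotype with BA, 2 for BA in hy5, 0 for BA in WT and 0 for the interaction. Of fold changes of the 10 genes under an alternative, 29 changed sign, none of them called in either setting. The lowest level of these genes in any library was 79.9 CPM, each group had 2 libraries, and the smallest difference called was 18.3%.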
